A study of Rattus norvegicus with 12 samples.

Results

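The let-7 family was described in rat milk whey and serum by the guide strands, the mature miRNAs that enter the silencing complex, of its members on the array. The members were taken by name: rno-let-7a, rno-let-7b, rno-let-7c, rno-let-7d, rno-let-7e, rno-let-7f, rno-let-7i and rno-miR-98, which are 8 of the 388 rat miRNAs measured. The species prefix is left out from here on. Lactating F344/N rats, an inbred strain, gave serum on day 21 and milk on days 2, 9 and 16 after giving birth, and the milk was reduced to whey. Each group held samples of the same 3 rats, and each of the 12 samples was hybridized alone to an array with 70 ng of total RNA. The labels gave no treatment or allele, but by the study's methods the rats got oxytocin and light sevoflurane anaesthesia for milking, and serum was taken once, when they were killed under deep anaesthesia, so collection and sample type cannot be told apart. Because every array received the same mass of RNA, a level is relative to the RNA of its sample, and amounts per volume of milk or blood were not measured here. By quantitative PCR in equal volumes, the study reported more let-7i in colostrum than in mature milk, both as whey, and no change in let-7c over lactation. A rise on the arrays is therefore not a rise per volume. Whey and serum are mixtures from many sources, so fewer source cells of a type and less RNA per cell cannot be told apart.

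The serum arrays had total signals between 90002 and 161389. Those of day 2 whey were the dimmest, between 22491 and 26246, those of day 9 whey had between 70752 and 106976, and those of day 16 whey between 76845 and 120359. The arrays of days 2 and 9 were on slide 1, and those of day 16 and serum on slide 2. For comparisons across the slides, slide and group cannot be told apart. Summed signals of markers of other sources followed the sample types. The erythroid markers miR-451 and miR-144 summed to between 11968 and 27733 in serum and to at most 9.97 in any whey sample, with miR-144 detected on no array, and the liver miRNA miR-122 gave 1416 to 2033 in serum and at most 5.57 in whey. The 4 leukocyte markers summed to between 6671 and 9180 in serum. Their sums in whey lay between 24.1 and 30.3 on day 2, between 34.0 and 79.2 on day 9, and between 28.0 and 621 on day 16, where rat 2 gave the highest value. Of these markers, miR-223, miR-142-5p and miR-150 averaged higher in serum than in every whey group, but miR-142-3p did not. On the quantile-normalized log2 scale described below, miR-142-3p averaged 3.15 in serum, 0.63 in day 2, 3.19 in day 9 and 3.43 in day 16 whey. The 5 epithelial miRNAs of the miR-200 family were detected on every whey array, with sums of 1802 to 10970, and gave 154 to 565 in serum, with rat 1 highest and miR-141 undetected.

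The let-7 miRNAs are among the most conserved animal miRNAs. They were found in the worm as timing genes, and in mammals they repress transcripts such as Lin28, Hmga2 and the Ras genes through sites that pair with the seed, the bases near the 5′ end of the miRNA. Lin28 proteins in turn block the processing of let-7 precursors, and in cultured mouse mammary epithelium let-7 is scarce in progenitor cells. These points are background and were not measured here.

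All 8 mature sequences were found in RefSeq (rat assembly GRCr8) and are shown because the members are told apart by few bases. The capitals mark the seed, bases 2 to 8 from the 5′ end.
let-7a: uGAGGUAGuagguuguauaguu
let-7b: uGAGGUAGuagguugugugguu
let-7c: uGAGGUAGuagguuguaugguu
let-7d: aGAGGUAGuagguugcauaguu
let-7e: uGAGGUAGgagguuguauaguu
let-7f: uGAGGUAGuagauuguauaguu
let-7i: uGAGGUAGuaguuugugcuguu
miR-98: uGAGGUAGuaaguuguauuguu

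The 8 members shared 1 seed, and all were 22 bases long. Relative to let-7a, with positions counted from the 5′ end, let-7c differed by A19G, let-7e by U9G and let-7f by G12A. The other members differed more. let-7b had A17G and A19G, let-7d had U1A and U16C, and miR-98 had G11A and A19U. let-7i had 4 changes, G12U, A17G, U18C and A19U, and its nearest member, let-7b, was 3 bases away. Every other member had a neighbour at 1 or 2 bases.

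Each member was read by 2 probes of 10 spots each, and all 16 probes were complementary to their own miRNA in RefSeq, from its 3′ end at base 22 back to base 1, 2, 3, 4 or 5. The probes of let-7a, let-7b, let-7c, let-7d, let-7e and let-7f had 1 mismatch to another member, those of miR-98 had 2 and those of let-7i had 3. How far members bound each other's probes was not tested.

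The probe coordinates in the scanner files (rat build rn4) place the members in a few small clusters. On chromosome 17, let-7a (22119781 to 22119800), let-7f (22120143 to 22120163) and let-7d (22121911 to 22121928) lie 362 and 1768 bases apart by their starts. On chromosome 7, let-7c and let-7b start 409 bases apart, and on chromosome X a second copy of let-7f and miR-98 start 611 bases apart. let-7a and let-7c have further copies on chromosomes 8 and 11, and the array cannot tell the copies of a member apart. let-7e (chromosome 1, 56487152 to 56487169) and let-7i (chromosome 7, 62755367 to 62755386) have 1 place each, with no other member close by. In the RefSeq gene table (GRCr8) let-7f-2 and miR-98 lie within Huwe1, which encodes a ubiquitin ligase, let-7e lies within Spaca6 next to miR-99b and miR-125a, the let-7a copy on chromosome 8 lies near miR-100, and let-7c-1 lies near miR-99a. The table does not say whether these places are exonic or intronic.

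The scanner software called 7 members detected on all 12 arrays. The exception, miR-98, was detected in serum of 2 of 3 rats, in day 2 whey of 1 of 3 rats, and in day 9 and day 16 whey of all 3 rats. No spot of a member was saturated. let-7e was dim in places, and only 10 of its 20 spots were well above background on each serum array and in day 2 whey of rats 1 and 2. Brightness differs between probes for reasons other than abundance, so no member's level is ranked against another's.

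Quantile normalization was applied to the total signals of the 12 arrays, values under 1 were raised to 1, and log2 was taken. Every level below is on this scale unless another is named. limma was run once on all 188 miRNAs that any array detected, and p-values were adjusted over these by the Benjamini-Hochberg method with a threshold of 0.05. Values are means ± SD of 3 rats, and differences are log2 differences with their standard error (SE).

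**Figure D1:**
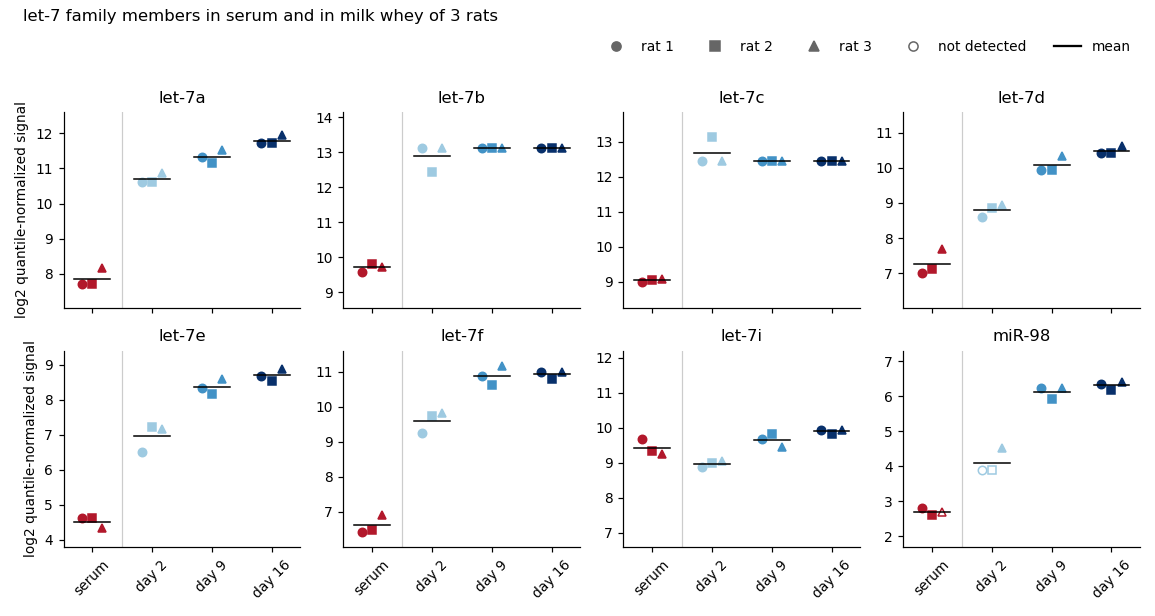
Log2 quantile-normalized signal of each let-7 member in serum and in whey of days 2, 9 and 16, with 1 point per rat, open where the member was not detected, and a line at the mean. In 7 panels the serum points lie below every whey point, and for let-7i they lie between the day 2 and day 16 whey points.

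Serum was set against whey to ask which family members separate blood from milk. Serum levels of all 8 members were below those of day 16 whey, a direction in which 38.8% of all tested miRNAs passed. For 7 members the difference was large, with log2 values of -3.23 to -4.31, whereas let-7i was lower by a far smaller amount. The median over the 8 members was -3.51, beside 0.11 over all tested miRNAs. These 2 groups shared a slide. The summed blood markers above and the epithelial miRNAs moved with the same contrast, and their part in it was not tested. With any 1 of the 12 arrays left out, the count of lower members was again 8.

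let-7a, the first member of the cluster on chromosome 17, had levels of 7.70, 7.70 and 8.15 in serum of rats 1, 2 and 3, against 11.72, 11.72 and 11.95 in day 16 whey. The groups lay far apart. The difference was -3.95 (SE 0.15, adjusted p = 7.03e-09), a 15.4-fold lower signal. Before normalization the total signals of let-7a were 432, 411 and 337 in serum and 2608, 4431 and 3852 in day 16 whey, so the direction was the same before it.

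let-7f, with 1 copy in the let-7a cluster and 1 beside miR-98, had levels of 6.44, 6.49 and 6.92 in serum, against 10.99, 10.79 and 10.99 in day 16 whey. Its difference of -4.31 (SE 0.20, adjusted p = 2.03e-08) was the largest among the 7 members detected on all arrays, a 19.8-fold lower signal. let-7d, the third member of the cluster on chromosome 17, averaged 7.26 ± 0.38 in serum and 10.49 ± 0.11 in day 16 whey, a difference of -3.23 (SE 0.20).

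let-7b and let-7c, which are neighbours on chromosome 7, were lower in serum by similar amounts. let-7b averaged 9.71 ± 0.11 in serum and 13.12 ± 0 in day 16 whey, and let-7c averaged 9.04 ± 0.05 in serum and 12.44 ± 0 in day 16 whey. The differences were -3.41 (SE 0.17) and -3.40 (SE 0.16). The SD of 0 in whey is a product of the normalization: let-7b was the second and let-7c the third brightest miRNA on every day 9 and day 16 array, and quantile normalization gives equal ranks equal values. In serum let-7b ranked 17 to 20 and let-7c 27 to 29.

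let-7e, the member beside miR-99b and miR-125a, averaged 4.52 ± 0.16 in serum and 8.69 ± 0.17 in day 16 whey, a difference of -4.17 (SE 0.20). miR-98, which differs from let-7a at positions 11 and 19, averaged 2.70 ± 0.10 in serum, where 2 of 3 arrays detected it and the mean lay below the background limit, and 6.31 ± 0.11 in day 16 whey. Measured against that limit on the quantile-normalized scale, miR-98 was by the group means at least 7.73-fold lower in serum. The adjusted p of 2.97e-08 in limma belongs to the full difference. The bound belongs to that scale and was not tested. Before normalization the 2 probes of miR-98 differed by -3.02 and -2.61, of which the second is a smaller fold.

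let-7i did not follow the other members. Its levels were 9.67, 9.33 and 9.25 in serum, against 9.94, 9.82 and 9.94 in day 16 whey. The groups did not overlap but were close, with a difference of -0.48 (SE 0.13, 95% interval -0.79 to -0.18, adjusted p = 0.0077). This call rested on the scaling. With each array scaled to its 75th percentile over the miRNAs detected on all arrays, the difference was -0.04 (95% interval -0.34 to 0.26, adjusted p = 0.79), and without normalization it was 0.36 (adjusted p = 0.34).

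Against day 9 whey, 7 members were lower in serum, beside 38.3% of all tested miRNAs, with differences of -2.81 for let-7d to -4.27 for let-7f. let-7i differed by -0.23 (95% interval -0.53 to 0.07, adjusted p = 0.15) and did not pass, but it passed without serum of rat 1 (-0.35, adjusted p = 0.024). Against day 2 whey, the same 7 members were lower in serum, beside 43.1% of all tested miRNAs, and let-7i was higher (0.45, SE 0.13, adjusted p = 0.0113), beside 39.9%. let-7c had the largest difference there (-3.62, SE 0.16) and let-7d (-1.54, SE 0.20) the smallest among the lower members above background. For miR-98 both means lay below background in this comparison, and no fold is given.

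The contrast with day 2 whey changed when no normalization was applied, while scaling to the 75th percentile changed the call of no member in it. Day 2 arrays were the dimmest, and without normalization all tested miRNAs had a median difference of 1.85 between serum and day 2 whey, whereas the 8 members had a median of -0.23. On that scale let-7c and let-7f were lower in serum, beside 13.3% of all tested miRNAs, let-7d and let-7i were higher, beside 62.2%, and the other 4 members did not pass.

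**Figure D2:**
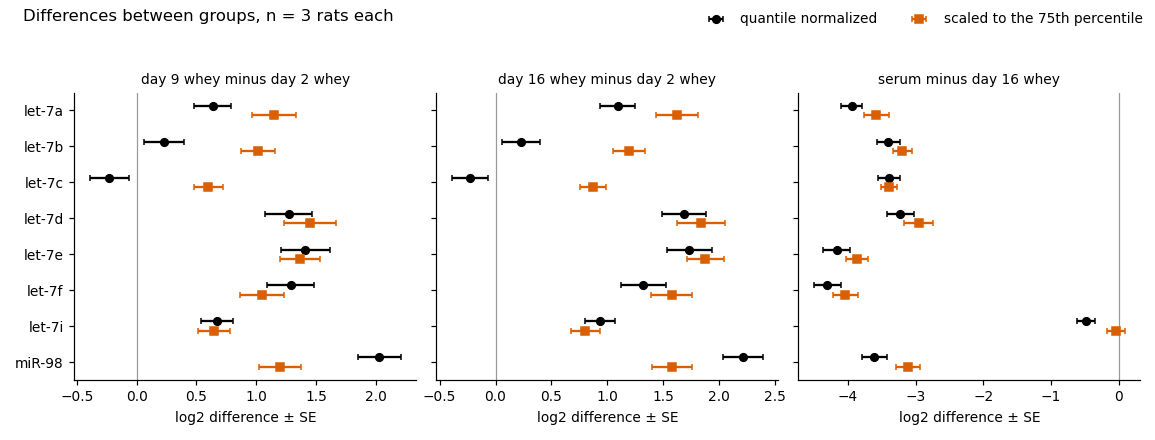
Log2 differences ± SE (n = 3 rats each) of the 8 members for day 9 against day 2 whey, day 16 against day 2 whey and serum against day 16 whey, after quantile normalization (circles) or scaling to the 75th percentile (squares). In the serum panel 7 members lie at -2.95 or below under both scalings and let-7i lies at -0.48 or -0.04, and in the whey panels let-7b and let-7c move to the right with scaling.

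A comparison that needs no scaling between arrays sets each member against the other members of its own array. Before normalization, let-7i minus the mean of the other 7 members was 2.87, 2.42 and 2.39 in serum of rats 1, 2 and 3. It was -0.07, -0.21 and -0.14 in day 2 whey, -0.56, -0.38 and -0.91 in day 9 whey, and -0.83, -0.78 and -0.93 in day 16 whey. Serum stood apart from every whey sample, in all 3 rats.

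Relative to the mean of all 8 members, let-7i was higher in serum by 2.98 than in day 16 whey (SE 0.17, 95% interval 2.62 to 3.35, adjusted p = 1.3e-08), by 2.78 than in day 9 whey and by 2.36 than in day 2 whey (all n = 3). The fit was again made over the 188 miRNAs. Because the family was lower as a whole in serum, 79.3% of all tested miRNAs were higher relative to the let-7 mean in serum than in day 16 whey, so the comparison of interest is that among the members. The same held for 78.2% against day 9 whey and 64.4% against day 2 whey. Of the 8 members, let-7i was higher relative to the mean, let-7a, let-7c, let-7e and let-7f were lower, beside 11.7% of all tested miRNAs, and let-7b, let-7d and miR-98 did not pass. The differences of the lower members were -1.01 for let-7f (SE 0.13, adjusted p = 1.4e-05), -0.85 for let-7e, -0.56 for let-7a and -0.37 for let-7c. let-7i is itself in the mean, which lowers the values of the other members by a common amount, and part of these calls rested on that. Relative to the mean of the 7 members without let-7i, a centring chosen after seeing the data, let-7f (-0.59, adjusted p = 0.000906) and let-7e (-0.42, adjusted p = 0.0282) were lower, let-7d was higher (0.50, adjusted p = 0.0073), and let-7a (-0.13, adjusted p = 0.363) and let-7c (0.05, adjusted p = 0.709) did not pass. let-7i was higher by 3.41. The spacing among the other 7, from 0.07 for let-7d to -1.01 for let-7f around the mean of 8, is the same under either centring. With normexp background correction let-7e was at 0.0715 (adjusted p = 0.625).

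**Figure D3:**
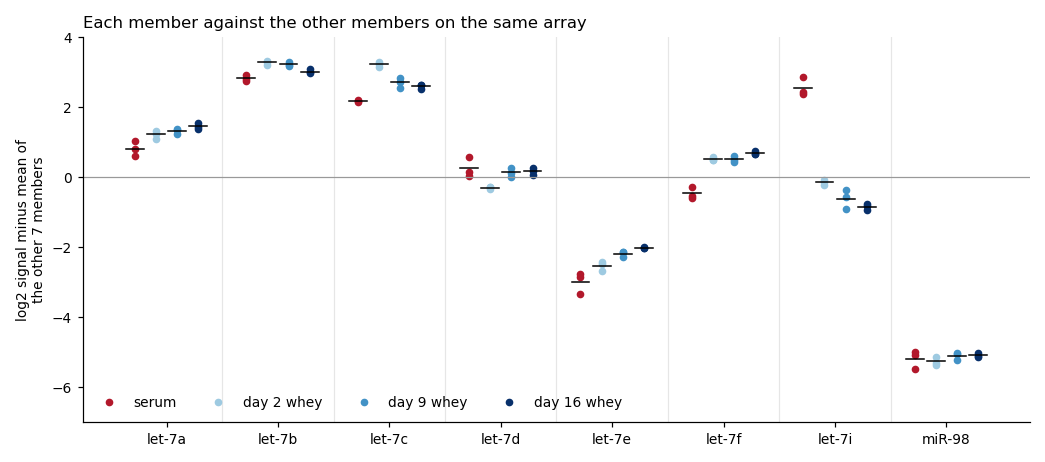
Log2 total signal of each member, before normalization, minus the mean of the other 7 members on the same array, with 1 point per rat and a line at the group mean. For let-7i the serum points (2.39 to 2.87) lie above the whey points (-0.93 to -0.07), and for let-7f the serum points (-0.58 to -0.27) lie below the whey points (0.44 to 0.76). Heights are to be compared within a member, since probes differ in brightness.

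The same contrast appeared in the share of an array's summed signal. let-7i held 1.05%, 0.892% and 0.852% in serum. In whey its share lay between 0.697% and 0.895% on day 2, between 0.693% and 0.885% on day 9, and between 0.829% and 0.987% on day 16. These ranges overlapped in every pair of groups. The other 7 members together held between 2.29% and 2.78% in serum. Their share of the whey signal lay between 14.1% and 18.7% on day 2, between 16.6% and 26.7% on day 9, and between 23.9% and 26.0% on day 16. Their share was 22.0 percentage points lower in serum than in day 16 whey. For let-7i the difference was 0.039 percentage points. Setting let-7i apart from the other 7 members was done with these values known, so the shares are a description and are given without a test.

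The erythroid miR-451 took 13.3% to 17.2% of the serum signal and at most 0.0141% on any whey array. With miR-451 left out of the total, all 8 members held 4.03% to 4.19% of the serum signal and 24.7% to 27.0% of the day 16 whey signal. A share of summed signal weights bright probes more than dim ones and is not a share of molecules.

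**Figure D4:**
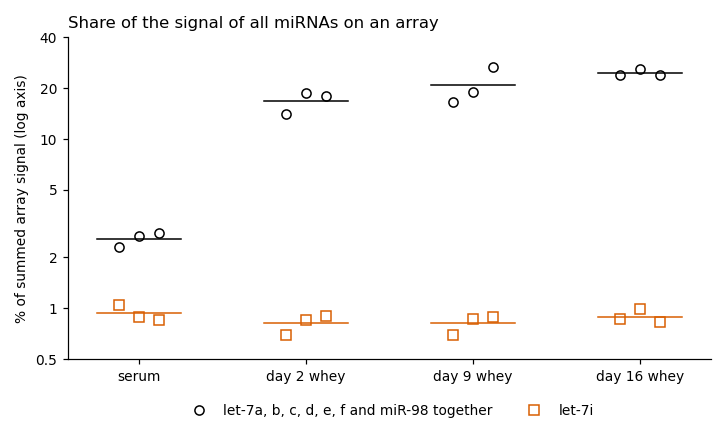
Percent of the summed signal of all 388 miRNAs on an array, on a log axis, held by let-7i (squares) and by the other 7 members together (circles), with 1 point per rat and a line at the mean. let-7i lies between 0.693% and 1.05% in every group, and the other members hold 2.29% to 2.78% in serum and at least 14.1% in whey.

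The 2 probes of a member gave like answers in most cases. Between serum and day 16 whey, their log2 differences before normalization had the same sign for 7 of 8 members, with a median gap of 0.23. The exception was let-7i, for which the shorter probe gave -0.15 and the longer probe 0.47. Both lay far above the other members, whose probes gave -2.54 to -4.62. The widest gap, 1.30, was that of let-7e, at -4.62 for the shorter and -3.32 for the longer probe, and the shorter one was near background in serum.

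**Figure D5:**
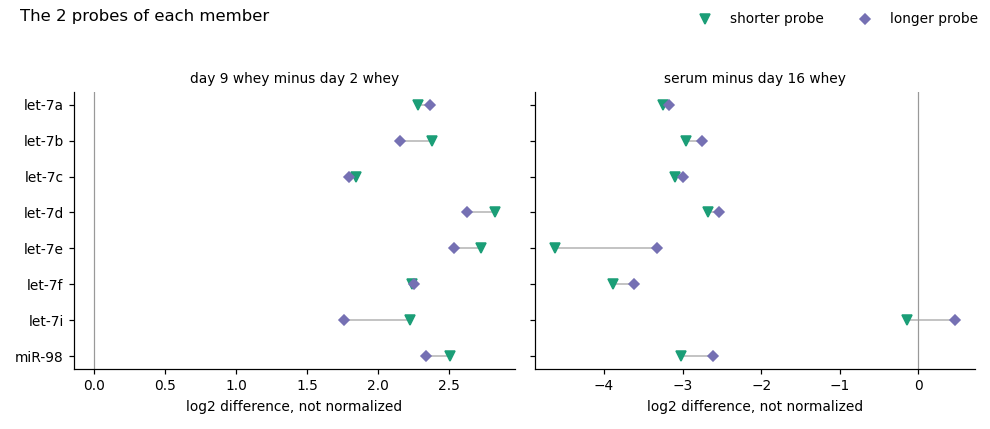
Log2 differences before normalization for the shorter (triangles) and longer (diamonds) probe of each member, for day 9 against day 2 whey and serum against day 16 whey. The probes of let-7i lie on both sides of 0 in the serum panel, at -0.15 and 0.47, and the probes of let-7e lie 1.30 apart.

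Whey of days 9 and 16 was set against that of day 2 to follow the family from colostrum to mature milk. In day 9 whey 6 members were higher than in day 2 whey and none was lower, where 28.2% of all tested miRNAs were higher and 17% lower. The count of 0 lower members was the same at an unadjusted p under 0.05 in limma and in a Tukey-Kramer test, run here on the array levels. The study's figures give that test for other measurements. The 6 higher members were let-7a, let-7d, let-7e, let-7f, let-7i and miR-98. The median over the 8 members was 0.97, beside 0.08 over all tested miRNAs. Both groups were on 1 slide.

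let-7e had levels of 8.34, 8.15 and 8.60 in day 9 whey, against 6.49, 7.21 and 7.16 in day 2 whey, a difference of 1.41 (SE 0.20, adjusted p = 0.00033). miR-98 had levels of 6.23, 5.92 and 6.23 in day 9 whey, against 3.89, 3.89 and 4.53 in day 2 whey, where it was detected only in rat 3. Measured against the background limit on this scale, miR-98 was by the group means at least 1.69-fold higher in day 9 whey. The limits of the day 2 arrays were 6.12, 5.30 and 4.69, so that of rat 1 lay above the day 9 level of rat 2. The adjusted p of 9.86e-06 in limma belongs to the full difference, and the bound was not tested. The remaining differences ranged from 0.64 for let-7a (SE 0.15) and 0.68 for let-7i (SE 0.13) to 1.29 for let-7f (SE 0.20).

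In day 16 whey the same 6 members were higher than in day 2 whey, beside 32.4% of all tested miRNAs, and none was lower, beside 22.9%. let-7e again had the largest difference among the members detected on all arrays, 1.73 (SE 0.20, adjusted p = 6.53e-05), followed by let-7d at 1.69 (SE 0.20) and let-7f at 1.32 (SE 0.20). let-7a averaged 11.79 ± 0.13 in day 16 whey and 10.70 ± 0.15 in day 2 whey, a 2.13-fold higher signal. let-7i averaged 9.90 ± 0.07 in day 16 whey and 8.97 ± 0.10 in day 2 whey, a difference of 0.93 (SE 0.13). miR-98 was at least 1.92-fold higher on the same scale.

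let-7b and let-7c did not pass in either comparison, and for them the quantile scale leaves no room for change. On the day 2 arrays they held ranks 2 and 3 in rats 1 and 3 and the reverse order in rat 2, so each level was 12.44 or 13.12. The differences were 0.23 for let-7b and -0.23 for let-7c, both between day 9 and day 2 and between day 16 and day 2. After scaling to the 75th percentile, let-7b was higher by 1.02 in day 9 whey (SE 0.14, adjusted p = 0.00029) and by 1.19 in day 16 whey. let-7c was higher by 0.60 in day 9 whey (SE 0.12, adjusted p = 0.00238) and by 0.87 in day 16 whey. On that scale all 8 members were higher than in day 2 whey on both days, beside 25% of all tested miRNAs on day 9 and 31.4% on day 16. The direction for let-7c thus turned with the scaling.

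Among the members, the change was unequal. Relative to the mean of the 8 members on the same array, let-7c was lower in day 9 than in day 2 whey (-0.46, SE 0.12, adjusted p = 0.0064), let-7i was lower (-0.41, SE 0.17, adjusted p = 0.044) and let-7d was higher (0.39, SE 0.15, adjusted p = 0.038). Relative to the let-7 mean, 66.5% of all tested miRNAs were lower in day 9 whey and 5.32% were higher. In day 16 whey, beside 73.9% lower and 4.79% higher, let-7c (-0.55) and let-7i (-0.62, SE 0.17, adjusted p = 0.0059) were again lower, and let-7d (0.42) and let-7e (0.46) were higher. These calls were near the threshold. On day 9, leaving out single arrays left 1 to 4 members past it, and with the family median let-7d (0.27, adjusted p = 0.0885) and let-7i (-0.53, adjusted p = 0.0621) did not pass. On day 16, let-7d (0.20) and let-7e (0.24) did not pass with the family median, nor without let-7i in the mean (0.33 and 0.37). With normexp let-7i did not pass on day 16 (-0.28, adjusted p = 0.112), and let-7c (0.12) and let-7e (-0.26) turned without passing.

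Between days 16 and 9 no member passed, where 7.45% of all tested miRNAs did in either direction. The differences ran from 0 to 0.46, and those of let-7b and let-7c are fixed at 0 by their ranks. The count rested on the scaling: with each array scaled to its 75th percentile over all miRNAs, let-7c (0.35, adjusted p = 0.0346), let-7e (0.58, adjusted p = 0.0247) and let-7f (0.60, adjusted p = 0.0343) were higher in day 16 whey, and with normexp let-7e was (0.45, adjusted p = 0.0147). The share of all tested miRNAs that passed under these settings is not given, so these counts cannot be set against it. At an unadjusted p under 0.05, 1 member was higher, let-7a, with levels of 11.72, 11.72 and 11.95 in day 16 whey against 11.33, 11.17 and 11.52 in day 9 whey (0.46, SE 0.15, 95% interval 0.11 to 0.80, adjusted p = 0.092 in limma). The Tukey-Kramer test also called 0 members. With the rat as a block let-7a passed (adjusted p = 0.0193), and it also passed without serum of rat 3 (adjusted p = 0.0459). On the quantile scale the values of let-7a and let-7d did not overlap between the groups. The number of members without overlap depended on the scale. It was 2 there, 6 with scaling to the 75th percentile over miRNAs detected on all arrays, and 3 without normalization. The share of all tested miRNAs without overlap is not given, so these counts are not read as a result about the family. The 2 groups were on different slides.

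The passenger strands, the opposite arms of the precursors, were nearly silent. Of the 4 on the array, let-7b*, let-7e* and let-7i* were detected on 0 of 12 arrays, and let-7d* only in serum of rat 3. Their levels are not compared for that reason, although the fit put let-7d* past the threshold between days 16 and 2 (-1.29, adjusted p = 0.046), with no array of either group detecting it.

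The 5 miRNAs listed as cluster partners did not share one pattern. In a short window around each member, the RefSeq table lists 4 of them but not miR-125b. Longer distances were not looked at, so this does not say whether miR-125b shares a transcript with a member. miR-125a-5p, near let-7e, averaged 3.11 ± 0.17 in serum and 5.97 ± 0.30 in day 16 whey, a difference of -2.86 (SE 0.23, adjusted p = 1.32e-06), and in day 9 and day 16 whey it differed from day 2 whey by 0.17 and 0.37 without passing. Its cluster partner miR-99b was detected only in day 16 whey, in 2 of 3 rats. miR-99a, near let-7c-1, averaged 7.30 ± 0.20 in serum and 7.88 ± 0.16 in day 16 whey (-0.58, SE 0.12, adjusted p = 0.00135), and it was higher in day 9 whey (0.59, adjusted p = 0.00238) and day 16 whey (0.70) than in day 2 whey. miR-100, near the second let-7a copy, averaged 4.96 ± 0.25 in serum and 4.00 ± 0.45 in day 16 whey (0.95, SE 0.58, adjusted p = 0.17). miR-125b-5p was lower in serum than in day 16 whey (-1.18, SE 0.39, adjusted p = 0.019). Scaling to the 75th percentile left miR-125a-5p lower in serum (-2.23, adjusted p = 7.27e-06), while miR-99a (-0.07) and miR-125b-5p (-0.45) no longer passed and miR-100 was higher (1.48, adjusted p = 0.038). Without normalization miR-99a was at 0.34 (adjusted p = 0.35). After quantile normalization 4 of the 6 partners and passenger strands that were tested passed as lower in serum than in day 16 whey, beside the 38.8% of all tested miRNAs.

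Among 107 miRNAs outside the family that were detected on at least 9 arrays, those whose levels over the 12 arrays were most like the mean of the members were miR-151 (Pearson r 0.99), miR-28 (0.99), miR-291a-5p (0.98), miR-294 (0.98) and miR-26a (0.98). Over the 9 whey arrays alone r was 0.96, 0.95, 0.94, 0.91 and 0.81 for them. The 12 arrays share 3 rats and fall into serum and whey, so these values describe the pattern and are given without a test. miR-151 and miR-26a were detected on all 12 arrays and miR-28 on 11. miR-291a-5p and miR-294 were detected on only 9, so their r rests in part on arrays that did not detect them.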

How the data were processed

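Milk whey of days 2, 9 and 16 and serum of day 21 from 3 rats were measured on 12 one-colour Agilent rat miRNA arrays. The authors labelled the RNA, scanned the arrays and read the images in Agilent Feature Extraction 9.5.3.1, per the labels. The deposited intensity values, per spot and as a total per miRNA, are background-subtracted and were not normalized between arrays. The deposited value table holds the same spot intensities: none of the 8475 spots differed from the scanner files by over 1%. A further deposited table with 12 unlabelled columns of normalized values was not used.

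Quantile normalization, as in the study's methods, was followed by a floor of 1 and log2. A model with 1 mean per group was fitted with limma 3.58.1 (R 4.3.3) to the 188 miRNAs that any array detected, for 6 two-sided comparisons with Benjamini-Hochberg adjustment. The within-family values were the log2 total signals minus the mean of the members, fitted in the same way. Background limits are the lowest normalized signals among miRNAs whose spots were mostly well above background. Sequences are from RefSeq. Python 3.11.15 with pandas 2.3.3 and scipy 1.17.1 made the tables. The fit was tested on simulated data. No 2 of the 66 pairs of arrays were identical.

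By the rule for naming, the text gives all 8 members, their passenger strands, 5 cluster partners, the 5 most similar miRNAs and fixed marker lists. The members and lists were chosen with earlier results of these data known. In the labels a replicate number is a rat, so samples with 1 number are paired. Across miRNAs, samples of 1 rat deviated from their group means with correlations between -0.0705 and 0.431 (18 pairs, median 0.0426), and samples of different rats had a median of -0.034 (36 pairs). The labels name separate rats, and p-values measure the spread between these 3 within the groups. That spread was pooled over the groups without a term for the rat, and limma moderated it with that of the other miRNAs. For let-7b and let-7c the spread in whey is set by their ranks.

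Alternatives were other scalings, floors, filters, background correction, spot summaries and tests, the rat as a block, leaving out each array and, chosen after seeing the data, centring on the members without let-7i. The number of arrays limits the precision.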

Additional observations from a re-analysis of the deposited data

How the results depend on the processing

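Of 270 alternative counts of passing miRNAs, 251 were within 1.5 times the main count. Between days 16 and 9, where no member passed, 3 passed with scaling to the 75th percentile of all miRNAs, 1 with normexp background correction (offset 50), 1 with the replicate block for the rat (let-7a) and 0 to 1 with single arrays left out, and 1 partner passed with either scaling. The share of all tested miRNAs that passed with this scaling, normexp or the block is not given. The block changed no other call of a member. Without normalization, 4 members passed between serum and day 2 whey, 2 higher and 2 lower, beside 62.2% and 13.3% of all tested miRNAs. Of the tested partners and passenger strands 4 were higher there, beside the same 62.2%. After quantile normalization 2 had been lower, beside 43.1%. Among the 4 is let-7d*, detected only in serum of rat 3, and the count is not read as a result about the partners. Leaving out normalization shifted the median of all tested miRNAs by 0.91 and 1.14 for days 9 and 16 relative to day 2 and by 0.20 for day 16 relative to day 9. For serum relative to days 16, 9 and 2 the median shifted by 0.84, 1.02 and 2.00. Scaling to the 75th percentile shifted it by -0.20, -0.12, 0.06, 0.41, 0.49 and 0.27. Relative to the family, 1 member passed between days 9 and 2 with the family median and 1 to 4 with single arrays left out, and 3 passed between serum and day 2 whey with normexp. Another alternative, chosen after seeing the data, was the mean of the 7 members without let-7i. With it, 3 members passed between serum and day 9 whey (2 higher), where 6 had passed (5 lower) around the mean of all members. Between serum and day 2 whey 5 passed (3 higher), where 7 had passed (5 lower). With this centring let-7c turned against day 16 (0.053) and let-7b against day 9 (0.0438), without passing. The share of all tested miRNAs that passed relative to the family is not given for these alternatives. These counts are therefore not read as a result about the family.

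These directions turned. let-7c was higher in day 9 than in day 2 whey with scaling to the 75th percentile (0.60 over miRNAs that every array detected, 0.81 over all miRNAs) and without normalization (1.80), and in day 16 than in day 2 whey it was higher by 0.87, 1.16 and 2.22. For let-7i the serum difference turned positive without passing when no normalization was applied (0.36 against day 16, adjusted p = 0.336, and 0.66 against day 9, adjusted p = 0.0943). Scaling over miRNAs that every array detected did the same against day 9 (0.12, adjusted p = 0.444). Against day 9, scaling over all miRNAs (-0.36, adjusted p = 0.0149) and normexp (-0.43, adjusted p = 0.00427) instead made let-7i pass as lower in serum. Without normalization let-7d was higher in serum than in day 2 whey (0.64), and miR-98, below background in both groups, was at 0.21 without passing (adjusted p = 0.597). Between days 16 and 9, let-7i was at -0.0598 with normexp, and let-7f ranged from -0.10 to 0.18 with single arrays left out. With normexp these values relative to the family turned, without passing: let-7c between days 9 and 2 (0.17) and days 16 and 2 (0.12), and let-7e between days 16 and 2 (-0.26), serum and day 16 (0.0715) and serum and day 9 (0.18). The cause was not tested. let-7i minus the family mean stayed between 2.17 (normexp) and 3.41 (mean of the other 7) in serum against day 16 whey, and between 2.85 and 3.06 with single arrays left out. For miR-98 the signal over background limits every comparison with day 2 whey and serum.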

Other observations

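Over the 12 arrays, the 21 pairs of members without let-7i had Pearson correlations of their quantile-normalized levels of 0.76 to 0.99, and the pairs with let-7i had 0.048 to 0.62. Over the 9 whey arrays alone the pairs of let-7i with let-7a, let-7d, let-7e, let-7f and miR-98 had 0.878 to 0.933, and those with let-7b and let-7c, which are set by rank there, had 0.449 and -0.449. The pairs of let-7c with all other members were then negative, from -1 to -0.354. Over all 12 arrays pairs that differ by 1 base had 0.94 to 0.99 (4 pairs), and pairs that differ by 3 bases, among them let-7b with let-7i, had 0.15 to 0.98 (9 pairs). The points share rats, slides and the split between serum and whey, so these values are a description. Over the 10 spots of a probe, the coefficient of variation had a median of 15.7% for the 7 members detected on all arrays and 26.7% for miR-98.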
